A study of Rattus norvegicus with 12 samples.

Results

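The 10 genes described here encode the transcription factors of the secondary clock loops and of clock output: the REV-ERB genes Nr1d1 and Nr1d2, the ROR genes Rora and Rorb, the PAR bZIP genes Dbp, Tef and Hlf, the bZIP repressor gene Nfil3, and the DEC genes Bhlhe40 and Bhlhe41. They were taken by symbol, and each matched 1 of the 23760 gene rows. RNA sequencing had been carried out on rat (Rattus norvegicus) hippocampus in 6 libraries labelled AS3h and 6 labelled NC, in a series on cognitive impairment after prolonged underwater operation. The 2 abbreviations are not expanded in the labels, and they state no strain, age, sex, details of treatment or hour of sampling. All 12 libraries share the tissue and the library kit, and no Ccr3 knockdown sample was among them. No label says that the libraries came from separate animals, so p-values measure the spread between these libraries.

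The circadian clock of mammalian cells is a transcriptional feedback loop in which CLOCK or NPAS2 with BMAL1 (gene Arntl) activates genes through E-boxes, among them the Per and Cry genes whose products repress it. In a further loop the nuclear receptors REV-ERB repress, and the ROR receptors activate, Arntl and other genes through a shared response element, the RORE. The PAR bZIP proteins activate genes through D-boxes, NFIL3 represses through the same element, and the DEC proteins repress E-box genes. In brain, Per and Bhlhe40 genes are also known to respond to neuronal activity and hormones.

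Because the core loop activates genes through E-boxes, the promoters that held one are shown. RefSeq promoter entries (build GRCr8, a later assembly than the mRatBN7.2 named for the data) existed for 9 of the 10 genes, 10 entries in all, since Nr1d1 had 2. Hlf had none. The 250 bases before each annotated start were searched on both strands. The E-box CACGTG, which reads the same on both strands, occurred in 4 of the 10 entries, against 5.59% of all 33469 entries of that length. The capitals below mark it, 5′ to 3′ on the gene's strand. Tef lies at chr7:115206577-115206826 (+ strand), Nr1d1 at chr10:84229455-84229704 (- strand), Bhlhe40 at chr4:143174200-143174449 (+ strand) and Bhlhe41 at chr4:180569356-180569605 (- strand).
Tef: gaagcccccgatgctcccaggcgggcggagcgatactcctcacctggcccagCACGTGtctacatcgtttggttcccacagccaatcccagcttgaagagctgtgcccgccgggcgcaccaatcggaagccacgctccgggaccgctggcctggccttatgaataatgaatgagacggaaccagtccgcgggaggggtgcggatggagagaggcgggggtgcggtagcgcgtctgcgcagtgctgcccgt
Nr1d1: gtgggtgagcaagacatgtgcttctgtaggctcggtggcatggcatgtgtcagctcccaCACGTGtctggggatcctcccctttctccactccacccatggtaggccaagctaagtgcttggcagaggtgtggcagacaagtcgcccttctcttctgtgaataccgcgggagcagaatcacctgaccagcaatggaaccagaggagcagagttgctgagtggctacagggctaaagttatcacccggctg
Bhlhe40: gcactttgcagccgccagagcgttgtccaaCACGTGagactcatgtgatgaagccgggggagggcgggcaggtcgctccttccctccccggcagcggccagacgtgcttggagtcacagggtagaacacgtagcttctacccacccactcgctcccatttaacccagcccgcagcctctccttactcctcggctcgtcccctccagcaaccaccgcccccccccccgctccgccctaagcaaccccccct
Bhlhe41: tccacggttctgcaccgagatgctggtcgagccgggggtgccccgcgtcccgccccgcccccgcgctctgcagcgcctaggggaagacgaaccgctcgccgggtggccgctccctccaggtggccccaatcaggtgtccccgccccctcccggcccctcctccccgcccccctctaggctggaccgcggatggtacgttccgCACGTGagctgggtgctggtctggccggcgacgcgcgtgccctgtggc
The E-box began 198 bases before the start in Tef, 191 in this Nr1d1 entry, 220 in Bhlhe40 and 48 in Bhlhe41. No entry of the 9 genes held the D-box TTATGTAA or TTACGTAA (0.932% of all entries), the RORE core TAGGTCA or TGGGTCA (5.62%), the palindromic glucocorticoid response element (0.373%) or the cyclic AMP element TGACGTCA (1.59%). The E-box, TTACGTAA and the cyclic AMP element share the central letters ACGT. A match or its absence in this window is a description only.

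Reads assigned to genes ranged from 29.6 M to 38.1 M per library. Values below are read counts normalised by the authors' library factors, and fold changes are differences of log2(normalised count + 1), AS3h over NC, with their standard errors. The hippocampal markers Prox1 (dentate gyrus) and Wfs1 (area CA1) were present in every library, at 2788 to 4120 and 7149.5 to 19528 in AS3h and at 2881 to 5702 and 12095 to 19267 in NC, whereas Spink8 stood at 0 in some libraries of both groups. Zbtb20, Calb1 and Fibcd1 had log2 fold changes of -1.12, -0.29 and 0.25 (limma adjusted p = 0.0725, 0.0881 and 0.138). None of the 6 subfield markers passed the threshold, and the part of dissection in these values was not tested. Summed choroid plexus markers ranged from 345 to 68843 in AS3h, the highest being AS3h 5 and AS3h 4 (7475), and from 216 to 1234 in NC. Blood markers summed to 12306 to 38897 in AS3h and 9495 to 23169 in NC. AS3h 5 also had the highest sum of oligodendrocyte markers, 585410, against 322234 to 413872 in the other 11 libraries. None of the 7 choroid plexus genes or 4 blood rows tested passed the threshold. Among the other marker lists, 1 excitatory neuron gene rose, and 1 gene each of the oligodendrocyte precursor, microglia, endothelium and striatum lists and 2 cortex genes fell; their part in the results below was not tested. In bulk tissue, fewer cells of a type and less RNA per cell cannot be told apart.

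Of the 10 genes, Tef, Nr1d2 and Bhlhe41 rose in AS3h, none fell and 7 did not pass (limma, Benjamini-Hochberg over all 19050 genes tested, adjusted p under 0.05). All 10 passed the filter on low values. Over all genes tested, 9.26% passed, with 5.04% higher and 4.22% lower. The 10 genes were chosen with earlier results of these data known, so their counts beside such shares are a description and no test. At an unadjusted p under 0.05, 5 of the 10 were higher and 0 lower, against 12.8% and 12.1% of all genes. By limma-voom 3 were called higher and 0 lower, against 6.55% and 5.53% of all genes. With blood and choroid plexus levels as covariates none of the 10 passed, where of all 19050 genes 55 were higher and 74 lower. With so few calls over all genes, none among 10 is no result about these genes. In that fit 2 of the 10 had an unadjusted p under 0.05 in limma, a share near the 16.9% of all genes. The median log2 fold change was 0.14 over the 10 genes and -0.0043 over all genes, and the median absolute change 0.18 and 0.16. For 2 genes, Tef and Nr1d2, every AS3h library lay above every NC library, which held for 3.01% of all genes. For none was every AS3h library below every NC library, which held for 2.04% of all genes, 5.05% in both directions together.

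**Figure D1:**
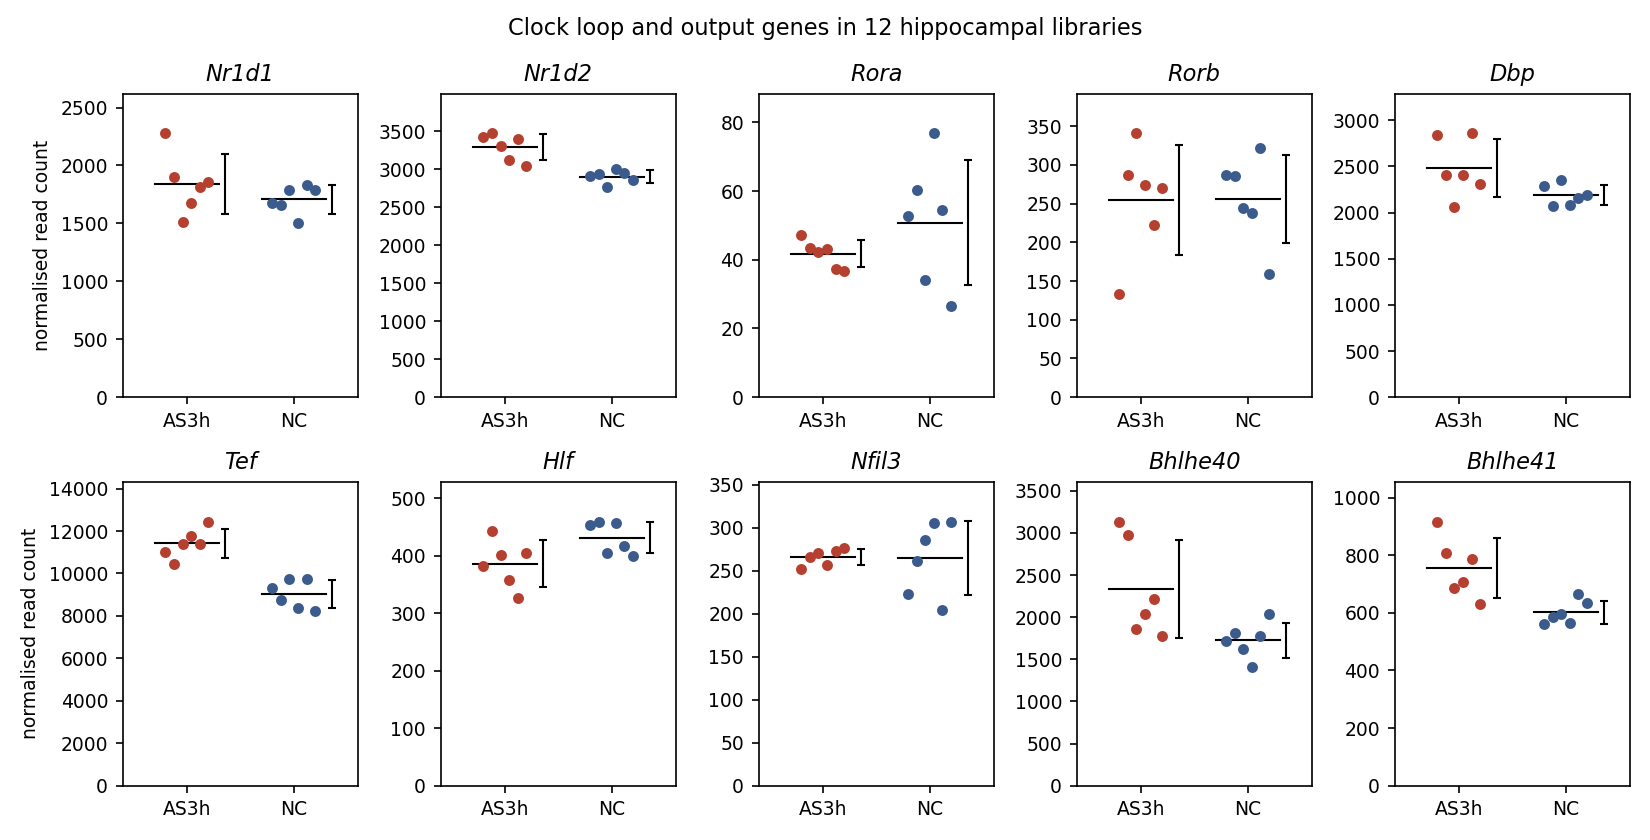
Normalised read counts of the 10 genes (y axis, from 0) in the 6 AS3h and the 6 NC libraries; points are libraries, lines group means and bars the SD. Tef and Nr1d2 show no overlap between groups, whereas Nfil3, Rora and Rorb overlap fully or nearly so.

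Of the PAR bZIP genes, Tef passed the threshold, and Dbp and Hlf did not. Tef, a D-box activator, had 10454 normalised reads in the lowest AS3h library, a median of 11407 and 12445 in the highest, against 8246, 9034 and 9759.8 in NC. The lowest AS3h library thus exceeded the highest NC library. Its mean was 11416 ± 669.5 in AS3h and 9032 ± 679.7 in NC (SD, n = 6 each), 26.5% higher on the fitted scale (log2 fold change 0.34 ± 0.056, limma adjusted p = 0.00219, 95% interval 0.22 to 0.46). The call held in each of the 12 omissions of 1 library (adjusted p at most 0.00782), and without AS3h 4 and AS3h 5 the log2 fold change was 0.33 (adjusted p = 0.0174). Under the covariate fit the log2 fold change was 0.40 ± 0.088, with a wider standard error than in the reported fit, and the limma adjusted p 0.0567.

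Dbp, the D-box activator known for a large daily rhythm in many tissues, had 2059.9, 2407 and 2860.2 normalised reads in AS3h (lowest, median, highest) and 2066.5, 2178 and 2351 in NC. In 4 AS3h libraries it lay above every NC library, and in AS3h 3 below all of them. Its log2 fold change was 0.17 ± 0.074 and did not pass (limma adjusted p = 0.167, 95% interval 0.01 to 0.33). Hlf, the third PAR bZIP gene, had 326, 392 and 444 in AS3h and 400.1, 435 and 459.7 in NC. In 3 AS3h libraries it lay below the NC range, and AS3h 5 had the least. The Hlf log2 fold change was -0.17 ± 0.082 (limma adjusted p = 0.227, 95% interval -0.34 to 0.0096), and without AS3h 4 and AS3h 5 it was -0.08.

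Nfil3, the D-box repressor gene, had 252, 268 and 277 normalised reads in AS3h and 205, 274 and 307 in NC. The AS3h libraries lay inside the NC range, with a coefficient of variation of 3.56% against 16.3% in NC. The log2 fold change was 0.02 ± 0.11 (limma adjusted p = 0.929), with a 95% interval of -0.20 to 0.25 that leaves room for changes of that size.

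Whether related genes differed unequally was tested on 11 ratios taken within a library, on which the library factor acts only through the 1 added before the log. Of these, 1 passed by a two-sided exact permutation test adjusted over the 11. The log2 ratio of Tef to Hlf averaged 4.89 ± 0.20 in AS3h and 4.38 ± 0.16 in NC (SD, n = 6 each), a difference of 0.50 ± 0.10 (SE; exact permutation p = 0.00433, adjusted p = 0.0476; the smallest p possible is 0.00216). The lowest AS3h ratio, 4.56, was just below the highest NC ratio, 4.59. The call was lost without NC 1, NC 2, NC 4 or NC 6 (permutation adjusted p = 0.0714 in each). Without AS3h 4 and AS3h 5 together the exact permutation p was 0.0143 (adjusted p = 0.157). The smallest p possible there is 0.00476, so 1 pair alone could not pass after adjustment over the 11, and that omission cannot decide. The ratio of Dbp to Hlf differed by 0.34 ± 0.14 and that of Nfil3 to Tef by -0.32 ± 0.14 (exact permutation p = 0.0368 and 0.0455, adjusted p = 0.167 for both). Dbp to Tef differed by -0.17 ± 0.096 (exact permutation p = 0.126, adjusted p = 0.276), so a smaller change of Dbp than of Tef was not shown.

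**Figure D2:**
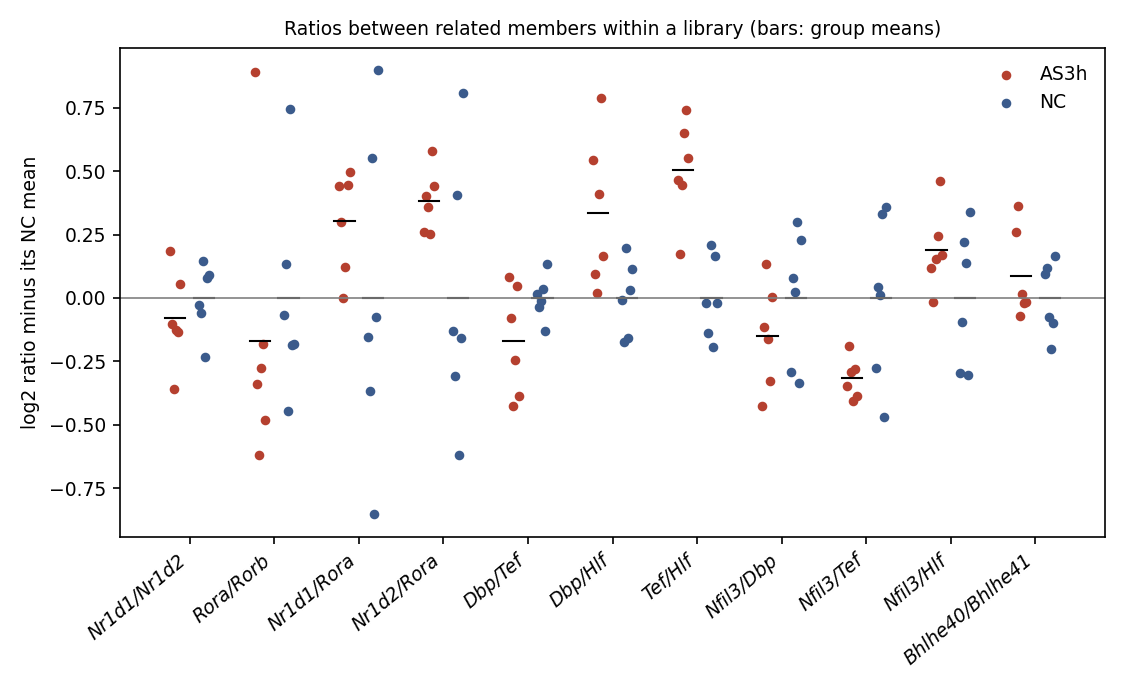
Log2 ratios of 11 gene pairs within each library, set to their NC mean (y axis), for AS3h (left of each pair) and NC libraries; points are libraries and bars group means, the NC bars lying on the zero line. The Tef to Hlf ratio is the one that passed, with AS3h points mostly above the NC points.

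Of the REV-ERB genes, which encode repressors acting at ROREs, Nr1d2 rose. It had 3046, 3351 and 3476 normalised reads in AS3h (lowest, median, highest) and 2761, 2923.5 and 3005 in NC. The groups did not overlap, although AS3h 6 exceeded NC 4 by little. The change was 13.3% (log2 fold change 0.18 ± 0.045, limma adjusted p = 0.0228, 95% interval 0.08 to 0.28). It did not pass without NC 3 (limma adjusted p = 0.0551), without AS3h 4 and AS3h 5 (0.0611) or with the blood and choroid plexus covariates (log2 fold change 0.17, adjusted p = 0.267).

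Its paralogue Nr1d1, encoding REV-ERB alpha, had 1510.2, 1837 and 2279 in AS3h and 1499.5, 1733 and 1828.5 in NC. AS3h 1 was the highest library, and the groups overlapped over most of their range. The log2 fold change was 0.10 ± 0.083 (limma adjusted p = 0.499, 95% interval -0.08 to 0.28), and it was 0.04 without AS3h 1 and 0.15 without AS3h 3 (adjusted p = 0.803 and 0.23), the ends of its range over the 12 omissions. The ratio of Nr1d1 to Nr1d2 differed by -0.081 ± 0.094 (exact permutation p = 0.418, adjusted p = 0.459), so a difference between the paralogues was not shown.

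The ROR genes, which encode activators at the same element, did not pass. Rora had 36.8, 42.8 and 47.2 normalised reads in AS3h and 26.6, 53.5 and 76.9 in NC, from 254 and 333 reads in all. All 6 AS3h libraries were below the NC median but inside the NC range. Its log2 fold change was -0.20 ± 0.23 (limma adjusted p = 0.634, 95% interval -0.69 to 0.28). NC 4, the highest library for Rora, also had the highest sum of 6 thalamus markers, 4383.5 against 1277 to 2301 in the other 11 libraries, and without NC 4 the Rora log2 fold change was -0.067 (limma adjusted p = 0.898). It was -0.37 without NC 6 (adjusted p = 0.288), the lowest library, and these are the ends of its range over the 12 omissions of 1 library. The part of neighbouring tissue in this value was not tested.

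Rorb, also a known marker of some cortical and thalamic neurons, had 133, 272 and 341 in AS3h and 159.7, 265 and 322 in NC. AS3h 1 was lower, and AS3h 3 higher, than every NC library. NC 4, the library with the highest thalamus sum, stood at 237.5 for Rorb, below the NC median. The log2 fold change was -0.03 ± 0.21 (limma adjusted p = 0.947, 95% interval -0.48 to 0.41), and it was 0.14 without AS3h 1 and -0.16 without NC 6, the ends of its range over the 12 omissions. The Rorb interval includes changes larger than those of Tef and Nr1d2 in either direction. That of Rora does so only as a fall, since its upper end is above the Nr1d2 rise but below the Tef rise.

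The DEC genes encode basic helix-loop-helix repressors of E-box genes. Bhlhe41 rose, with 629.97, 746 and 917 normalised reads in AS3h (lowest, median, highest) and 562, 589.9 and 665 in NC. In 5 AS3h libraries it lay above every NC library, the exception being AS3h 6. The change was 24.9% (log2 fold change 0.32 ± 0.086, limma adjusted p = 0.0307, 95% interval 0.14 to 0.50). The call was lost in 7 of the 12 omissions of 1 library (NC 1, NC 2, NC 3, NC 4, AS3h 1, AS3h 2 and AS3h 5; limma adjusted p up to 0.0666). It was also lost without AS3h 4 and AS3h 5 (limma adjusted p = 0.0904) and with the covariates (log2 fold change 0.26, adjusted p = 0.362).

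Bhlhe40 had 1779.5, 2127 and 3135 normalised reads in AS3h and 1406, 1745 and 2032 in NC. AS3h 1 and AS3h 2 stood at 3135 and 2973, and the other 4 AS3h libraries at 1779.5 to 2218. All 6 AS3h libraries were above the NC median. Its log2 fold change, 0.41 ± 0.14, was the largest of the 10 genes, but the spread was wide and it did not pass (limma adjusted p = 0.0789, 95% interval 0.11 to 0.70). It passed in 1 of the 12 omissions of 1 library, without AS3h 6 (limma adjusted p = 0.0479), and not in the other 11 (adjusted p up to 0.159). With the covariates the log2 fold change was 0.31 (limma adjusted p = 0.499). AS3h 1 and AS3h 2 were also the highest AS3h libraries for Bhlhe41, at 917 and 809, and the ratio of the DEC genes differed by 0.087 ± 0.094 between groups (exact permutation p = 0.372, adjusted p = 0.455).

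**Figure D3:**
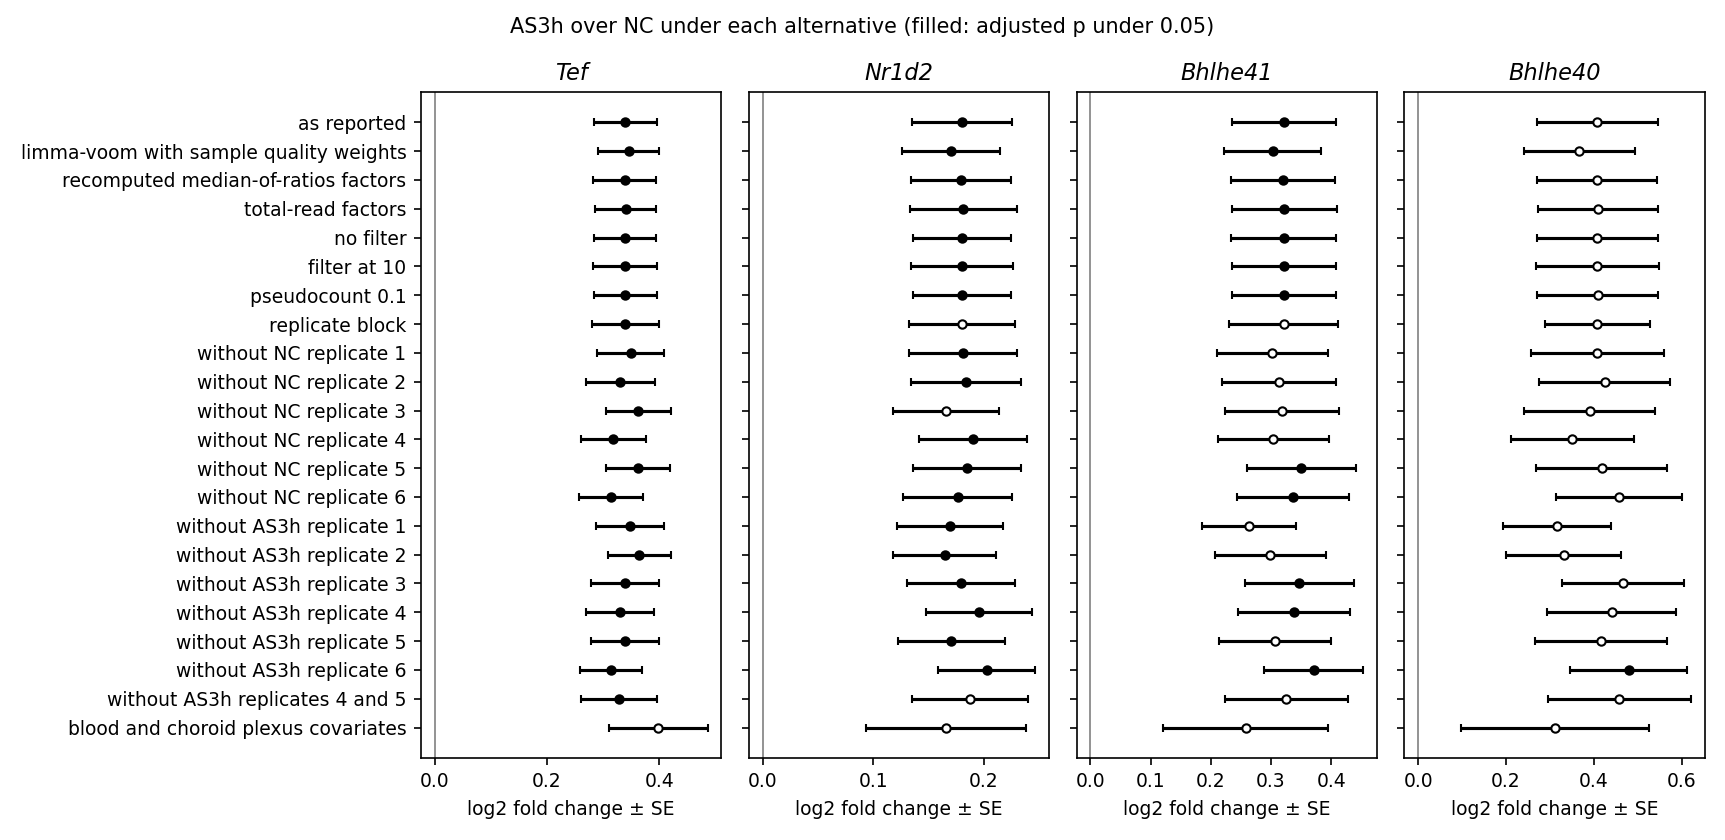
Log2 fold change ± SE (x axis), AS3h over NC, of Tef, Nr1d2, Bhlhe41 and Bhlhe40 under the reported fit and each alternative (rows); filled points have an adjusted p under 0.05. The fold changes stay above 0 in every row, and Tef loses its call only with the blood and choroid plexus covariates.

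The genes that connect with these factors were read from lists chosen with earlier results known. Over all genes tested, 5.04% were higher and 4.22% lower, but counts on lists so chosen are a description and no test. The core loop list holds 9 genes. Of them 5 rose and 2 fell, 2 missed the threshold, and the median log2 fold change was 0.35. Ciart, an E-box repressor gene, had 243, 289 and 829 normalised reads in AS3h (lowest, median, highest) and 102, 132 and 173 in NC (log2 fold change 1.45 ± 0.28, limma adjusted p = 0.00566). Cry1, encoding a cryptochrome repressor and itself known as a RORE target, had 517, 715 and 912 in AS3h and 308, 438 and 486 in NC (log2 fold change 0.74 ± 0.14, limma adjusted p = 0.00421). Per1, Per2 and Cry2 rose as well, by 0.53, 0.68 and 0.35 on the log2 scale. Per3 was at -0.20 ± 0.082 and Clock at -0.25 ± 0.22, and neither passed (limma adjusted p = 0.145 and 0.54). With the covariates 2 of the 9 passed, Per2 and Cry2.

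Of 6 genes described elsewhere as RORE targets, Cry1 rose, Arntl and Npas2 fell, and Clock, Nfil3 and Fabp7 did not pass, with a median of -0.21. Arntl, which encodes BMAL1, had 787, 879 and 960.3 normalised reads in AS3h and 973, 1025 and 1082 in NC, without overlap (log2 fold change -0.23 ± 0.062, limma adjusted p = 0.0311). Npas2, a CLOCK paralogue gene, had 989.7, 1101 and 1198 in AS3h and 1176, 1351 and 1771 in NC (log2 fold change -0.37 ± 0.10, limma adjusted p = 0.0407). Neither call held without AS3h 4 and AS3h 5 (limma adjusted p = 0.104 and 0.114), and they were lost in 6 (Arntl) and 7 (Npas2) of the 12 omissions of 1 library. Npas2 also missed the threshold without a filter on low values (adjusted p = 0.0568). With the covariates they were at -0.16 and -0.52 (adjusted p = 0.414 and 0.13).

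Of 9 genes described elsewhere as E-box or D-box outputs, 6 rose, 0 fell and 3 did not pass, with a median of 0.44. Besides Per1, Per2 and Ciart these were Usp2, encoding a ubiquitin protease (0.44 ± 0.076, limma adjusted p = 0.00284), Pdxk, encoding pyridoxal kinase (0.30 ± 0.076, adjusted p = 0.0218), and Rgs16 (0.83 ± 0.19, adjusted p = 0.0149). Pdxk and Rgs16 were picked after their values were seen, and Per1, Per2 and Ciart are counted in the core loop list too. The count of 6 is therefore no separate support. Pdxk did not pass without NC 2 (limma adjusted p = 0.0538). With the covariates 2 of the 9 passed, Per2 and Usp2. Of 9 genes for clock protein kinases and degradation, Usp2 and the ubiquitin ligase gene Fbxw11 (0.20 ± 0.048, limma adjusted p = 0.0177) rose, 0 fell and 7 did not pass. Fbxw11 did not pass without AS3h 4 and AS3h 5 (limma adjusted p = 0.0946) or with the covariates (0.13). None of 7 REV-ERB and ROR cofactor genes passed. The smallest p-values there belonged to Ncoa2 (-0.31 ± 0.11, adjusted p = 0.083) and Hdac3, encoding the deacetylase that REV-ERBs recruit (0.15 ± 0.06, adjusted p = 0.12). Some genes belong to more than 1 of these lists.

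**Figure D4:**
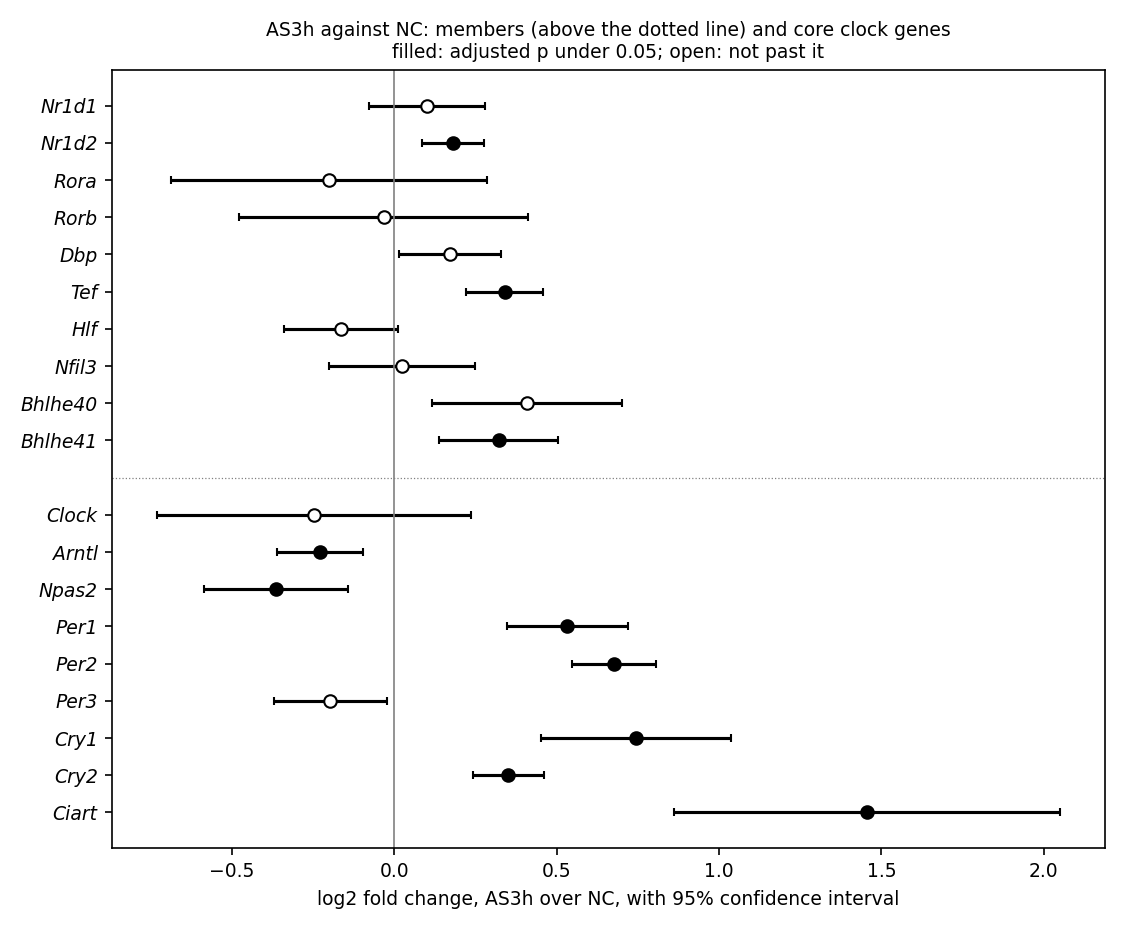
Log2 fold change, AS3h over NC (x axis), with its 95% confidence interval for the 10 genes (above the dotted line) and the 9 core clock genes; filled points have an adjusted p under 0.05. Tef, Nr1d2 and Bhlhe41 lie between 0.18 and 0.34, below Per2 (0.68), Cry1 (0.74) and Ciart (1.45). Tef lies close to Cry2 (0.35), and Bhlhe40 (0.41, open) above it. Arntl, Npas2, Per3 and Clock lie below 0, as do Rora, Rorb and Hlf.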

How the data were processed

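Strand-specific libraries were made from 1.3 µg of total RNA, per the labels' protocols. FastQC 0.11.5 and STAR, with the build mRatBN7.2, appear without roles in the submitters' processing notes. No source used here gives the counting program, its strand setting or the annotation, so overlapping genes may share reads. The deposited values were log2 values: from the values, the authors divided each library's read counts by a factor, added 1 and took log2. Whole reads came back in 100% of values (within 0.02 read).

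The fit was limma 3.58.1 in R 4.3.3 with a trend and robust empirical Bayes on the deposited log2 values of 12 libraries, group as the one term, for genes at a normalised value of at least 1 in at least 6 libraries, adjusted by Benjamini-Hochberg at 0.05. Fold changes understate those of genes with few reads. The exact permutation test of pair ratios was two-sided (SciPy 1.17.1 in Python 3.11.15). Even the closest replicate libraries were apart by more than sampling noise (chi-square over its degrees of freedom 11.9), and each counted as its own sample. Simulated data for AS3h against NC covered 18879 genes. Among those averaging 100 reads or more, 85.7% of the 1.5-fold changes and 98.6% of the 2-fold changes were recovered. Smaller changes, such as those of the genes described here, were not simulated. The simulated spread was taken from the NC libraries alone and used for both groups, and whether it matched that of AS3h was not tested. Only 200 genes were changed, and 132 were called, far fewer than in the data, which makes the adjustment stricter. These shares may therefore be too high or too low for this comparison. For Bhlhe40 the SD was 579.5 normalised reads in AS3h and 209 in NC. The SD was also wider in AS3h for Nr1d1, Nr1d2, Rorb, Dbp, Hlf and Bhlhe41, and narrower for Rora, Tef and Nfil3. The genes named were all 10 members, the core loop list, and up to 4 genes past the threshold by smallest p of each other list (2 where none passed), with exceptions marked. The members and lists were chosen with earlier results of these data known. Alternatives were voom, other factors, filters and pseudocounts, a replicate block, covariates and omissions. Itgam, Pecam1 and 3 globin symbols of the marker lists had no row and were not used here. Promoters came from RefSeq (GRCr8). Figures were drawn with matplotlib 3.10.9.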

Additional observations from a re-analysis of the deposited data

Results flagged for a closer look

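Among 52 sets of 6 libraries (26 named genes in 2 groups) a library stood far from the others on the log2 scale in 4, and in none of the 20 sets of the 10 genes described. Chance gives about 1 in 20. Ncoa2 was at 1260 normalised reads in AS3h 3, against 847 to 975 in the other AS3h libraries. Per2 was at 1363 in NC 3, against 1597 to 1685 in the other NC libraries, and Cry1 was at 308 in NC 3, against 412 to 486. Pdxk was at 1130 in AS3h 2, against 823 to 922 in the other AS3h libraries.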

How the results depend on the processing

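The 10 genes gave 3 calls in the reported fit, 1 with the replicate block (Tef), 1 without AS3h 4 and AS3h 5 (Tef), 0 with the blood and choroid plexus covariates (limma; 2 at an unadjusted p under 0.05, a threshold that 16.9% of all genes met), and 1 (without NC 3) to 4 (without AS3h 6) in omissions of 1 library; 0 were called lower under any of these. Over all genes, 960 higher and 804 lower became 454 and 406 without AS3h 4 and AS3h 5, 55 and 74 with the covariates, and 585 to 980 and 445 to 822 in omissions of 1 library, the fewest without NC 2. The causes were not tested. Uncalled values changed sign for Nfil3 with voom (-0.000163), with the covariates (-0.15) and in 2 omissions (range -0.049 to 0.068), and for Rorb with voom (0.0058), the covariates (0.14) and in 4 omissions (range -0.16 to 0.14). The Tef to Hlf difference was 0.50 with the replicate block (exact permutation adjusted p = 0.344; 6 pairs cannot give an exact p under 0.0312). It was 0.41 without AS3h 4 and AS3h 5 (exact permutation adjusted p = 0.157, smallest p possible 0.00476), and it ranged from 0.46 to 0.57 in omissions of 1 library. Nfil3 to Tef ranged from -0.41 to -0.25 and passed without NC 5 (exact permutation adjusted p = 0.0357). Libraries of the 2 groups share only a replicate number: correlations of same-numbered deviations were -0.05 to 0.096, and none was highest with its own number. The block left 691 higher and 605 lower calls, with adjusted p of 0.0513 for Nr1d2, 0.0633 for Bhlhe41, 0.0636 for Arntl, 0.0665 for Npas2, 0.0605 for Pdxk and 0.0614 for Rgs16, the last 2 leaving 4 of the 6 E-box and D-box output calls. The planned edgeR and DESeq2 fits were not run. They were set aside because the deposited unit was log2, although the recovered reads, on which voom was run, would have allowed them. Rora had the fewest reads, and its limits are counting error and spread together.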

Other observations

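Tef, Nr1d2 and Bhlhe41 were each set beside 12688 other genes with a mean of at least 100 normalised reads, by the Pearson r of deviations from the group mean over the 12 libraries. This describes likeness between libraries of 1 group, with no test, and the highest of so many values is large by construction. Nearest to Tef were Ubr4, Rai1 and St3gal3 (r of 0.957, 0.935 and 0.93), nearest to Nr1d2 were Arap2, Erbin and Piga (0.922, 0.913 and 0.911), and nearest to Bhlhe41 were Ammecr1l, Mss51 and Hnrnpa1 (0.939, 0.931 and 0.922). None of these 9 genes passed the threshold between AS3h and NC (limma adjusted p = 0.0684 to 0.939).

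Among 9 tested relatives of the ROR, bZIP and DEC families, Cebpb, encoding a C/EBP factor, rose (log2 fold change 0.51 ± 0.15, limma adjusted p = 0.043), 0 fell and 8 did not pass. It did not pass in 9 of the 12 single-library omissions, nor with AS3h 4 and AS3h 5 left out (limma adjusted p = 0.126), without a filter on low values (0.0587) or with the covariates (0.482).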
